A study of Mus musculus with 12 samples.

Results

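A set of 10 genes of the muscle heat shock and chaperone system were followed across 12 quadriceps libraries: the small heat shock proteins Hspb1, Cryab, Hspb7 and Hspb8, the co-chaperone Bag3, the HSP70 proteins Hspa1a, Hspa1b and Hspa8, the J-domain protein Dnajb1 and the HSP90 protein Hsp90aa1. They were chosen by gene symbol, with earlier results of these data known. All 10 of 10 were found among the 15344 genes of the expression tables and were above the filter on low values in each comparison. RNA-seq had been performed on quadriceps of a mouse model of Pompe disease, in which loss of acid alpha-glucosidase (GAA) lets glycogen build up in lysosomes, in 3 groups of 4 C57BL/6 mice that were 6 months old. The WT group was wild type and received no treatment. Both other groups were GAA-KO males, which were injected in the tail vein at 2 months of age and harvested 4 months later. The KO group received PBS, and the AAV group received 2e12 vg/kg of AAV2/8-LSPhGAApA, a vector that expresses human GAA from a liver-specific promoter, so that muscle would receive enzyme from the blood. By their labels the AAV animals were GAA knock-outs like the KO animals. The same 4 KO libraries entered both comparisons that involve them. The sex of the WT animals is not given in the sources used here.

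Heat shock proteins are molecular chaperones. Small heat shock proteins hold unfolding proteins in a soluble state without using ATP, and in muscle several of them sit on the Z-disc, titin and desmin, where contraction strains proteins mechanically. BAG3 joins HSPB8 to HSP70 and hands damaged Z-disc proteins such as filamin to autophagy, the lysosomal route of degradation, while J-domain proteins deliver clients to HSP70 and HSP90 completes the folding of kinases, receptors and myosin. Several of these genes are also switched on by heat shock factor 1, which binds DNA at inverted repeats of nGAAn units.

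The targeted gene did not follow the labels. The normalized counts of Gaa, the gene of the enzyme, were 342.9, 14640.2, 323.8 and 460.3 in WT 1 to 4, 12151, 13075, 11936 and 12895 in KO 1 to 4, and 946.8, 587.0, 499.6 and 9854.3 in AAV 1 to 4. Gaa reads were thus high in all 4 libraries labelled KO and low in 3 of the 4 labelled WT and 3 of the 4 labelled AAV, with WT 2 and AAV 4 standing apart from their groups. For that reason WT, KO and AAV below always mean the library labelled so, and every direction given rests on those labels. Where the knock-out allele disrupts Gaa is not given in the sources used here, so reads from outside the disrupted part cannot be told apart from others. Between 22122233 and 47379737 reads were counted per library. Skeletal muscle was borne out by the fast fibre markers, whose 12 genes made up between 20.5% and 25.6% of the normalized counts of each library. Whether the muscle was quadriceps in particular was not tested.

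Promoter windows of 3 genes are shown first, because Hspb1 and Hspb7 were the 2 genes that passed the test in both comparisons with KO, and because Hspa1a and Hspa1b differ so little that their reads need care. RefSeq windows from 250 bases before to 50 bases after the start of transcription (GRCm38.p6) were matched for 7 of the 10 genes, in 8 windows. Those of Cryab, Hspa8 and Hsp90aa1 were not matched. Capitals mark GAANNTTC, a pair of inverted heat shock factor units, which reads the same on both strands. The windows are Hspb1 at chr5:135887669-135887968 (+ strand), Hspb7 at chr4:141420529-141420828 (+ strand) and Hspa1a at chr17:34972107-34972406 (− strand).
Hspb1: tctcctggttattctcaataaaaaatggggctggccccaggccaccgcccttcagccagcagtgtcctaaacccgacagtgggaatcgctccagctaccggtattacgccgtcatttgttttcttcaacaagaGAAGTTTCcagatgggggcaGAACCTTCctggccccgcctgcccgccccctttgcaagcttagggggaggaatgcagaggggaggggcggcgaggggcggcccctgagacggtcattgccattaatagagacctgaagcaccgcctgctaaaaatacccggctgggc
Hspb7: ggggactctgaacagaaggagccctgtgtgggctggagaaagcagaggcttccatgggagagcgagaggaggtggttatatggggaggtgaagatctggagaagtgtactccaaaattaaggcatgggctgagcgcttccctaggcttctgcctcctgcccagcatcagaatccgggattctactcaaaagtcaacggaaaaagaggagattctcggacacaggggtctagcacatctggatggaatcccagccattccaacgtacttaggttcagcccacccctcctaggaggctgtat
Hspa1a: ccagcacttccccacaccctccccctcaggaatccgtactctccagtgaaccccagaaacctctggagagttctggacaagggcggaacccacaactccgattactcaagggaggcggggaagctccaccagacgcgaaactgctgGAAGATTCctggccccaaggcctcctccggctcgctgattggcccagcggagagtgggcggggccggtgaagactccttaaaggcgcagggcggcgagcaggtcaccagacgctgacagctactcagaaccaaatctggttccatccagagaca

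The Hspb1 window held GAANNTTC at bases 134 to 141 and again at bases 154 to 161, the Hspa1a and Hspa1b windows each held it at bases 147 to 154, and the Bag3 and Hspb8 windows held it at bases 293 to 300 and 253 to 260, which lie after the start of transcription. In all, 5 of the 8 windows had this motif, against 7.86% of the 32851 windows of all genes. TTCNNGAA, the same units in the other order, was in 0 of the 8 windows and in 8.52% of all windows. Heat shock elements of 3 units, which contain both shorter motifs, were, on either strand, in 0 of the 8 windows and in 0.603% of all windows, and TATAAA, read on both strands, was in 0 of the 8 windows and in 13.6% of all windows. The windows of Hspa1a and Hspa1b (chr17:34959189-34959488, − strand) were identical at 98.7% of 300 bases, and counted from the 5′ end they differed as C44T, T47C, T249G and C276T, with the base of Hspa1a first. A match of these letters is a description of the sequence and was not tested against binding.

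The largest difference among the 10 genes was in Hspb7. Hspb7 (chromosome 4, 141420779 to 141425311, + strand, protein coding), the cardiovascular small heat shock protein that binds filamin, had normalized counts of 57016, 55524, 22874 and 44397 in WT 1 to 4, 12671, 14937, 7413 and 4816 in KO 1 to 4, and 38667, 38432, 13253 and 66765 in AAV 1 to 4. Every KO library lay below every WT library, with WT 3 the lowest of its group, while AAV 3 fell inside the KO range and the other 3 AAV libraries lay far above it. Hspb7 was 4.67-fold lower in KO than in WT (log2 fold change −2.22, SE 0.39, adjusted p = 0.0044, limma with Benjamini-Hochberg adjustment over all genes tested; exact two-sided permutation p = 0.0286, the smallest that 4 against 4 libraries allow). It was 3.73-fold higher in AAV than in KO (log2 fold change 1.90, SE 0.48, adjusted p = 0.0204, limma; exact permutation p = 0.0571). This second call was lost without AAV 1 (adjusted p = 0.0587, limma) and without KO 4 (adjusted p = 0.0583, limma), whereas the first held with each of the 8 libraries left out in turn.

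Hspb1 (chromosome 5, 135887919 to 135889563, + strand, protein coding) encodes the small heat shock protein known as HSP25 in mice and HSP27 in humans, which protects actin filaments. Its normalized counts were 1580, 2510, 1331 and 2050 in WT 1 to 4, 981.7, 1280, 666.7 and 618.9 in KO 1 to 4, and 1178, 1722, 1241 and 2066 in AAV 1 to 4. All 4 KO libraries were below all 4 WT libraries, although KO 2 came close to WT 3, and KO 2 also lay above the 2 lowest AAV libraries. Hspb1 was 2.14-fold lower in KO than in WT (log2 fold change −1.09, SE 0.26, adjusted p = 0.0150, limma; exact permutation p = 0.0286), a call that held with each library left out. Its level in AAV was 1.78-fold that in KO (log2 fold change 0.83, SE 0.26, adjusted p = 0.0384, limma; exact permutation p = 0.0857). Leaving out any library except AAV 3 or KO 2 ended this call, with adjusted p (limma) between 0.0285 and 0.103 over the 8 fits. A near-identical processed copy, Hsp25-ps1, with 99.4% identity over 69.8% of the transcript, was at means of 22.6 in WT, 5.96 in KO and 7.92 in AAV. Another copy, Gm9817, with 99.8% identity over 54.6% of the transcript, was not measured.

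Cryab (chromosome 9, 50751325 to 50756636, + strand, protein coding), alpha-B-crystallin, is the chaperone of desmin and titin and was the most abundant of the 10. Normalized counts of 64882, 69311, 38405 and 55788 were measured in WT 1 to 4, 32499, 44016, 26757 and 18951 in KO 1 to 4, and 51460, 56201, 27080 and 80375 in AAV 1 to 4. Only KO 2 lay above the lowest WT library, WT 3, and AAV 3 again lay within the KO range. Cryab was 1.91-fold lower in KO than in WT (log2 fold change −0.93, SE 0.27, adjusted p = 0.0300, limma; exact permutation p = 0.0571). That call was kept without KO 2 or without WT 3 and was lost when any of the other 6 libraries was left out (adjusted p up to 0.0822, limma) or when 12 libraries were fitted together (adjusted p = 0.0507, limma). For AAV against KO the log2 fold change of 0.78 (SE 0.34, adjusted p = 0.112, limma) did not pass, but without AAV 3 it was 1.08 (adjusted p = 0.0171, limma), and DESeq2 called it (adjusted p = 0.0440). The gene overlaps Hspb2 on the opposite strand, and whether reads were counted by strand is not given in the sources used here, so reads of the 2 genes may not be fully separated.

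Hspb8 (chromosome 5, 116408491 to 116422864, − strand, protein coding), the small heat shock protein that partners BAG3, did not pass the limma test in any of the 3 comparisons. Its values in WT 1 to 4 were 34018, 29580, 18512 and 30431, those in KO 1 to 4 were 17223, 22450, 15646 and 21794, and those in AAV 1 to 4 were 19911, 18310, 21034 and 32990. Apart from WT 3, all WT libraries exceeded all KO libraries, and 3 of the 4 AAV libraries lay within the KO range. The log2 fold change was −0.53 for KO against WT (SE 0.21, 95% interval −0.99 to −0.06, adjusted p = 0.0823, limma) and 0.24 for AAV against KO (SE 0.20, adjusted p = 0.401, limma). Without WT 3 the difference between KO and WT was −0.72 (adjusted p = 0.00341, limma) and passed, and DESeq2 called it with all 8 libraries (adjusted p = 0.0386).

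Bag3 (chromosome 7, 128523616 to 128546981, + strand, protein coding), which links small heat shock proteins to HSP70 and to autophagy, varied least of the 10 within the WT and AAV groups, with a highest-to-lowest ratio of 1.24 in each. It was measured at 5713, 6659, 6105 and 5378 in WT 1 to 4, 4967, 6635, 4010 and 4078 in KO 1 to 4, and 6899, 7053, 5685 and 6401 in AAV 1 to 4. KO 2 stood at the level of the highest WT library, and the other 3 KO libraries lay below all WT and AAV libraries. The log2 fold change was −0.30 for KO against WT (SE 0.17, adjusted p = 0.195, limma) and 0.43 for AAV against KO (SE 0.17, adjusted p = 0.0797, limma), and neither passed. Without KO 2 the second difference was 0.58 (adjusted p = 0.0299, limma), and it also passed with scaling to total reads (0.59, adjusted p = 0.0443, limma).

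Among the HSP70 genes, Hspa8 (chromosome 9, 40800984 to 40810087, + strand, protein coding), the constitutive HSC70, was present at far more reads than the inducible pair. Its normalized counts were 8591, 9939, 7908 and 8329 in WT 1 to 4, 3470, 8024, 4996 and 2982 in KO 1 to 4, and 7750, 5829, 5812 and 8676 in AAV 1 to 4. KO 2 alone reached the WT range, while KO 1, KO 3 and KO 4 lay below every WT and every AAV library. Hspa8 was 1.92-fold lower in KO than in WT (log2 fold change −0.94, SE 0.27, adjusted p = 0.0287, limma; exact permutation p = 0.0571), a call kept without KO 2 or WT 3 and lost without any other library (adjusted p up to 0.0827, limma) and in edgeR (adjusted p = 0.0515). Between AAV and KO the log2 fold change was 0.61 (SE 0.28, adjusted p = 0.129, limma), which did not pass, but without KO 2 it was 0.89 (adjusted p = 0.0324, limma). Hspa8 has 14 near-identical pseudogene copies in the annotation, none of them in the expression tables, and its introns hold small nucleolar RNA genes.

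Hspa1a (chromosome 17, 34969190 to 34972156, − strand, protein coding) and Hspa1b (chromosome 17, 34956436 to 34959238, − strand, protein coding) encode the stress-inducible HSP70. Their transcripts were 99.2% identical over 74.2% of that of Hspa1a, and since only reads with a single mapping location had been kept, the split between the 2 genes is uncertain. Hspa1a was at 115.8, 152.0, 654.2 and 198.0 in WT 1 to 4, 217.4, 879.1, 109.9 and 200.7 in KO 1 to 4, and 390.0, 783.3, 212.6 and 149.6 in AAV 1 to 4. Hspa1b was at 104.1, 135.0, 424.5 and 132.6 in WT 1 to 4, 86.96, 450.7, 69.6 and 128.2 in KO 1 to 4, and 172.3, 442.0, 100.4 and 81.7 in AAV 1 to 4. One library of each group, namely WT 3, KO 2 and AAV 2, carried the highest value of both genes, and the groups overlapped over nearly their whole ranges. Summed, the pair reached 1079, 1330 and 1225 in these 3 libraries and 179.5 to 562.3 in the other 9. The summed pair differed by a log2 fold change of 0.02 between KO and WT (adjusted p = 0.981, limma) and of 0.26 between AAV and KO (adjusted p = 0.772, limma). The intervals were wide: for Hspa1a the 95% interval ran from −1.24 to 1.69 for KO against WT and from −1.13 to 1.73 for AAV against KO, so that 2-fold changes in either direction lay within them.

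Dnajb1 (chromosome 8, 83608193 to 83612653, + strand, protein coding), the HSP40 that feeds clients to HSP70, was measured at 369.2, 433.7, 237.8 and 485.7 in WT 1 to 4, 300.5, 904.8, 379.6 and 459.8 in KO 1 to 4, and 306.0, 348.3, 242.1 and 454.3 in AAV 1 to 4. Only KO 2 lay outside the range of the WT libraries on the high side. Its log2 fold change was 0.34 for KO against WT (SE 0.33, adjusted p = 0.463, limma) and −0.50 for AAV against KO (SE 0.32, adjusted p = 0.252, limma), opposite in sign to 8 of the other 9 genes in the former and to all of them in the latter. Hsp90aa1 (chromosome 12, 110690605 to 110702728, − strand, protein coding), the inducible cytosolic HSP90, was at 660.6, 345.5, 792.1 and 862.1 in WT 1 to 4, 527.5, 891.1, 333.9 and 387.3 in KO 1 to 4, and 952.4, 765.2, 620.0 and 1076 in AAV 1 to 4. KO 2 again exceeded the rest of its group and all WT libraries. The log2 fold change of Hsp90aa1 was −0.34 for KO against WT (SE 0.35, adjusted p = 0.484, limma) and 0.75 for AAV against KO (SE 0.29, adjusted p = 0.0818, limma). Without KO 2 the latter was 1.03 (adjusted p = 0.0255, limma), and without AAV 3 it was 0.89 (adjusted p = 0.0462, limma). Near-identical copies of Hsp90aa1 are Gm12346 (99.5% identity over 89.5% of the transcript), Gm5844 and Gm5511, of which only Gm12346 was measured. Gm12346 was at means of 9.79 in WT, 6.68 in KO and 10.2 in AAV.

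**Figure D1:**
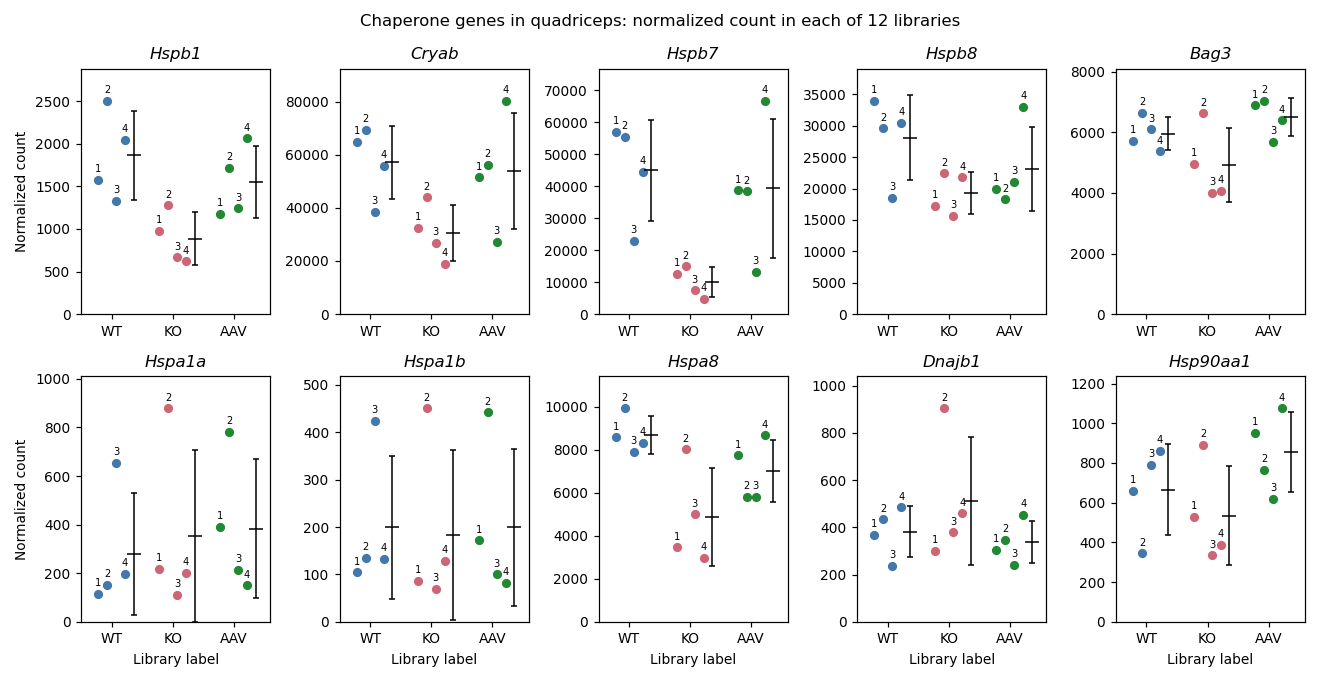
Normalized count (y axis, linear, from 0) of each of the 10 chaperone genes in the 12 libraries, grouped by label (x axis), with the animal number above each point and the group mean and SD as a black bar. KO 2 is the highest KO library in all 10 panels, and the KO points of Hspb7 and Hspb1 lie below all 4 WT points.

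Counted together, 8 of the 10 genes had a lower and 2 a higher mean log2 value in KO than in WT. Of the 10, 4 passed the test as lower (Hspb7, Hspb1, Cryab and Hspa8), against 15.3% of all 14859 genes tested, and 0 passed as higher, against 12.3%. Genes that passed with at least a 2-fold difference numbered 2 (Hspb7 and Hspb1), against 13.9% of all genes. The groups did not overlap for the same 2, against 28.3% of all genes. The median log2 fold change of the 10 was −0.43, and that of all genes tested was 0.02. Since the 10 were chosen with earlier results of these data known, the counts and medians set beside those of all genes are a description. Left out in turn, any library other than WT 3 and KO 2 reduced the count of lower genes to 2, while it was 5 without WT 3 and 4 without KO 2.

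For AAV against KO, 9 of the 10 genes had a higher mean log2 value in AAV, and Dnajb1 a lower one. The test was passed as higher by 2 (Hspb7 and Hspb1), against 12.8% of all 14894 genes, and as lower by 0, against 13.4%. A difference of at least 2-fold was reached by 1 of these (Hspb7), against 8.98%, and for 0 of the 10 did the groups not overlap, against 30.6% of all genes. The median log2 fold change was 0.52 beside 0.04 for all genes tested. The count of higher genes was 5 without KO 2, 4 without AAV 3, 0 without AAV 1 or without KO 4 and 1 without any of the other 4 libraries. The 2 comparisons share the KO libraries, so that a low KO level enters both with opposite signs, and they are not independent of each other.

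Between AAV and WT, which share no library, 0 of the 10 genes passed in limma, in which 142 genes (0.951%) passed as higher, 51 (0.341%) as lower and 193 (1.29%) in either direction. With an unadjusted p under 0.05 there were also 0 of the 10, beside 2719 of 14939 genes. On the recovered reads edgeR called 0 of the 10 and 163 genes in all, and DESeq2 0 and 935. Without WT 2 and AAV 4, the libraries whose Gaa stood apart from their groups, limma called 6 genes in all and 0 of the 10, too few calls to say anything of the 10. The groups overlapped for all 10 genes, against no overlap in 11.7% of all genes. The median log2 fold change was −0.16 beside −0.03 for all genes. For Hspb7 the difference of −0.32 had a 95% interval from −1.37 to 0.73, and for Hspb1 the difference of −0.26 had one from −0.81 to 0.28. Cryab differed by −0.15 (95% interval −0.89 to 0.58), Hspa8 by −0.33 (−0.71 to 0.06) and Bag3 by 0.13 (−0.18 to 0.43). These intervals leave room for differences of over 2-fold in Hspb7 but not in Bag3.

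**Figure D2:**
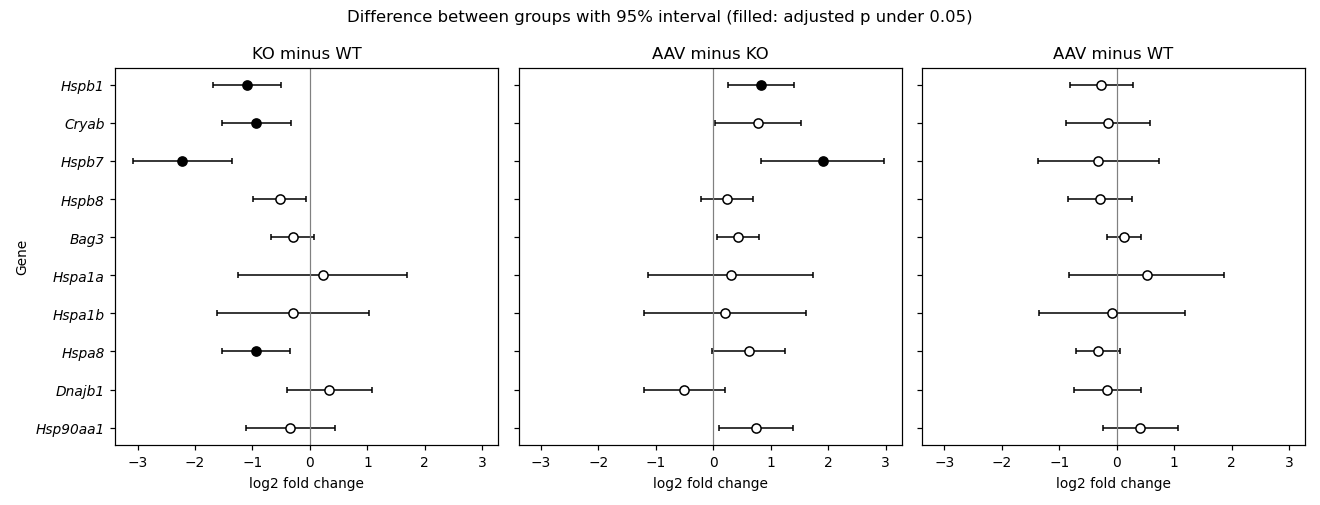
Log2 fold change (x axis) of each chaperone gene with its 95% interval, for KO minus WT, AAV minus KO and AAV minus WT, with filled points for an adjusted p under 0.05 (limma, Benjamini-Hochberg). Hspb7 lies farthest from 0 in the left and middle panels, at −2.22 and 1.90, and all intervals of the right panel cross 0.

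Per kilobase of exon, the order of abundance in WT was Cryab (38605 normalized counts per kb), Hspb7 (16234), Hspb8 (14428), Bag3 (2328), Hspa8 (2021), Hspb1 (1812), Hsp90aa1 (169.2), Dnajb1 (119.1), Hspa1a (94.4) and Hspa1b (71.0). At 3 steps this order separated the libraries completely, namely Cryab from Hspb7, Hspb8 from Bag3 and Hspb1 from Hsp90aa1, whereas all other neighbours overlapped. Hspa8, Hspb1, Hsp90aa1, Hspa1a and Hspa1b have near-identical copies, and only reads with a single location were kept. Their places may therefore be too low, and how far was not tested. In KO, Hspb8 (9886 per kb) stood above Hspb7 (3597 per kb) without overlap, so that Hspb7 moved from the second to the third place. Both returned to overlapping levels in AAV, with 14185 per kb for Hspb7 and 11826 per kb for Hspb8.

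Many of the 10 genes were highest or lowest of their group in the same library. KO 2 was the highest KO library for all 10 genes, by a ratio to the mean of the other 3 KO libraries that ran from 1.23 for Hspb8 to 4.995 for Hspa1a, with 2.10 for Hspa8 and 2.38 for Dnajb1. WT 3 was the lowest WT library for 6 genes (all 4 small heat shock proteins, Hspa8 and Dnajb1) and the highest for Hspa1a and Hspa1b. AAV 4 was the highest AAV library for 7 genes, and AAV 3 the lowest for 6. How often each library was highest or lowest over all genes was not counted. These counts therefore do not show a trait particular to the 10. Without WT 3 the genes called for KO against WT rose from 4097 to 7160. In the mean z-score over the 10 genes, KO 2 stood at 0.72, above all WT libraries (0.18 to 0.46), whereas KO 1, KO 3 and KO 4 stood at −0.77, −1.19 and −1.07. Within a group the inducible pair spread most, with Hspa1a ranging 8.00-fold over KO, 5.65-fold over WT and 5.24-fold over AAV.

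**Figure D3:**
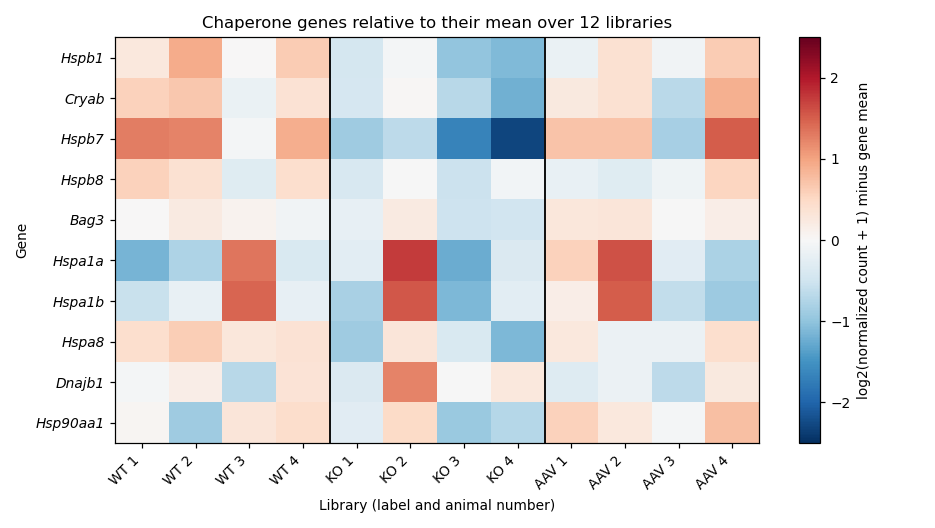
Heat map of log2(normalized count + 1) minus the gene's mean over 12 libraries (colour scale, red above and blue below the mean) for the 10 genes (rows) and the 12 libraries (columns, black lines between labels). KO 1, KO 3 and KO 4 are blue in most rows, KO 2 is not, and the rows of Hspa1a and Hspa1b are darkest red in WT 3, KO 2 and AAV 2.

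The chaperone network lists, like the 10 genes, were chosen with earlier results of these data known. The remaining chaperone network was examined through 10 lists with 100 genes in the tables, of which 99 were tested for KO against WT. There 27 were lower and 7 higher, beside 15.3% lower and 12.3% higher among all genes tested. The same shares apply to each list count for KO against WT that follows, and 12.8% higher and 13.4% lower to each for AAV against KO. The counts ran from 18 to 36 lower and from 1 to 17 higher with 1 library left out, both maxima being without WT 3. The higher count moved by over 1.5 times without any of the 8 libraries. Of the other small heat shock proteins, 2 of 3 were lower in KO: Hspb2, the muscle protein MKBP (log2 fold change −0.84, SE 0.25, adjusted p = 0.0342, limma), and Hspb6, HSP20, which was named after its values were seen (−0.52, SE 0.16, adjusted p = 0.0349, limma). The third, Hspb3, was at −0.55 (adjusted p = 0.129, limma).

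The endoplasmic reticulum chaperones were the list with the most lower members in KO, 11 of 16 lower and 1 higher, with a median log2 fold change of −0.58. Among them, Manf, a secreted stress-responsive protein of the endoplasmic reticulum, fell from a mean of 1292 ± 188 in WT to 404.5 ± 64.2 in KO (SD, n = 4 each), with a log2 fold change of −1.67 (SE 0.16, adjusted p = 0.000259, limma), and Dnajc3, an inhibitor of eIF2-alpha kinases, rose (0.68, SE 0.16, adjusted p = 0.0129, limma). Both reversed sign between AAV and KO, where the list had 3 of 16 higher and 1 lower: Manf was at 1.22 (SE 0.20, adjusted p = 0.00495, limma) and Dnajc3 at −0.73 (SE 0.10, adjusted p = 0.00215, limma). The only one of the 100 genes that passed between AAV and WT was Sdf2l1, another endoplasmic reticulum component, which was lower in AAV (−1.03, SE 0.18, adjusted p = 0.0393, limma), where 1.29% of all genes passed in either direction. This count depended on the fit: 0 were lower and 1 higher with scaling to total reads, 4 lower and 2 higher with DESeq2, and 5 lower and 1 higher with 12 libraries in one fit. None (0) passed when any 1 library other than WT 3 was left out.

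Of the genes that work with BAG3 and HSP70, 3 of 8 BAG3 clients and selective autophagy partners were lower in KO and 0 higher. Stub1, the ubiquitin ligase CHIP that docks on HSP70, fell by 0.70 on the log2 scale in KO (SE 0.16, adjusted p = 0.0124, limma) and was higher in AAV than in KO by 0.68 (SE 0.11, adjusted p = 0.00449, limma). Bag1, a nucleotide exchange factor of HSP70, was the only 1 of 8 in its list to pass in either of these comparisons, at −0.91 for KO against WT (SE 0.16, adjusted p = 0.00497, limma) and 0.54 for AAV against KO (SE 0.10, adjusted p = 0.00638, limma). The other HSP70 and HSP110 genes had 2 of 9 higher and 2 lower in KO, with Hspa12b at 0.99 (adjusted p = 0.0323, limma) and Hspa2, best known from testis, at −1.43 (adjusted p = 0.0186, limma). Between AAV and KO, Hspa2 was higher (0.91, adjusted p = 0.0381, limma) and Hspa13, a microsomal HSP70, lower (−0.92, adjusted p = 0.00387, limma), with 1 of 9 higher and 2 lower in all (12.8% and 13.4% of all genes).

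J-domain co-chaperones had 2 of 11 higher and 0 lower in KO, led by Dnaja2 (log2 fold change 0.60, adjusted p = 0.0191, limma), and 1 higher and 3 lower between AAV and KO (12.8% and 13.4% of all genes), led by Dnajc7 (0.43, adjusted p = 0.0172, limma) and Dnaja2 (−0.66, adjusted p = 0.0136, limma). In the HSP90 list, 2 of the 14 tested were higher and 1 lower in KO. Smyd1, the muscle methyltransferase that works with HSP90 on myosin, was at 0.56 (adjusted p = 0.0239, limma) and Cdc37, the kinase co-chaperone, at −0.47 (adjusted p = 0.0203, limma), while Fkbp4, an immunophilin, was the 1 of 15 lower in AAV than in KO (−0.36, adjusted p = 0.0409, limma). Heat shock factors and regulators had 2 of 5 lower in KO, among them Hsbp1l1 (−1.55, adjusted p = 0.00878, limma), and 1 lower in AAV than in KO, Hsf1 (−0.37, adjusted p = 0.0371, limma), the main factor of the heat shock response. Hsf1 itself differed by 0.13 between KO and WT and did not pass (adjusted p = 0.512, limma).

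Of the cytosolic chaperonin and prefoldin genes, 3 of 13 were lower and 0 higher in KO, and 2 higher and 4 lower in AAV than in KO. Pfdn5, a prefoldin subunit, was at −1.03 for KO against WT (adjusted p = 0.00692, limma) and at 0.68 for AAV against KO (adjusted p = 0.0109, limma), and Vbp1, another subunit, at −0.76 in the latter (adjusted p = 0.0197, limma). Mitochondrial chaperones had 2 of 12 lower in KO, with Dnajc19, a part of the protein import motor, at −0.95 (adjusted p = 0.0190, limma), and 1 lower in AAV than in KO, Clpx, of the ClpXP protease (−0.56, adjusted p = 0.0398, limma). Over all 10 lists, 9 of 100 genes were higher and 13 lower in AAV than in KO, near the shares among all genes tested (12.8% and 13.4%). This split turned to 13 higher and 5 lower when libraries were scaled to equal total reads, which shifted the median of all genes by 0.16. It was 14 higher and 16 lower with DESeq2 and 8 higher and 7 lower with 12 libraries in one fit. With 1 library left out, the higher count ran from 7 to 14 (14 without AAV 3). The lower count ran from 3 to 16, with 3 without KO 4, 4 without KO 2 or AAV 1, 5 without KO 1 and 6 without AAV 4.

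**Figure D4:**
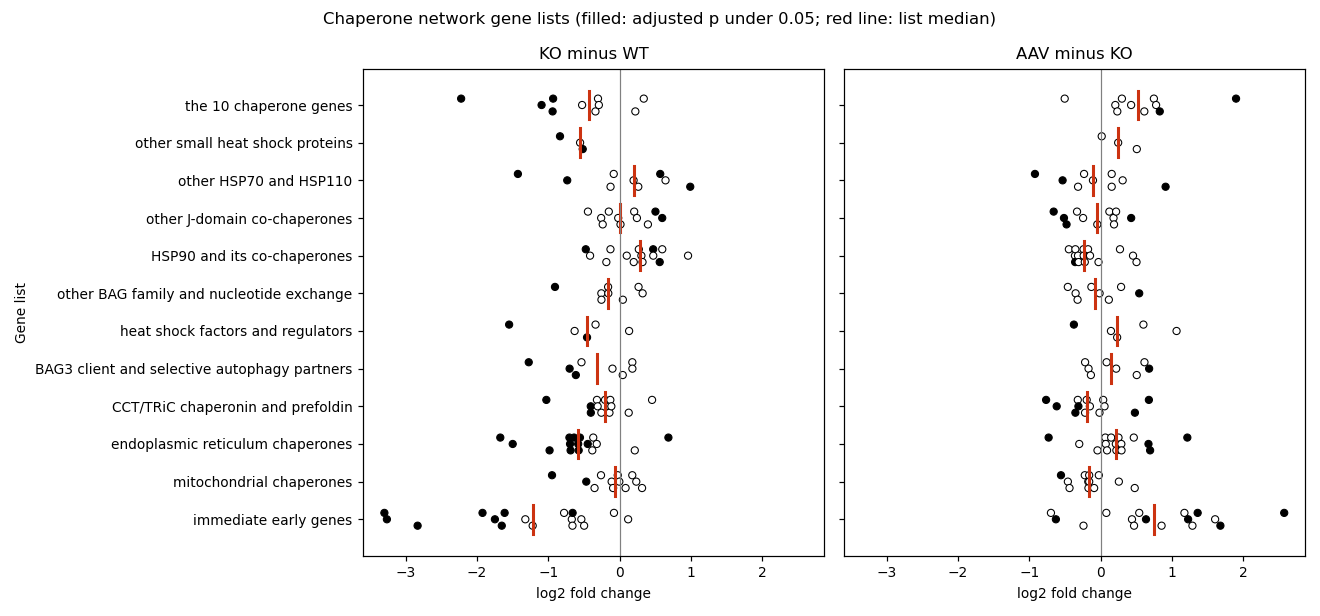
Log2 fold change (x axis) of every tested gene in the 10 chaperone genes, the 10 chaperone network lists and the immediate early genes (y axis), for KO minus WT and AAV minus KO. Points are genes, filled where the adjusted p is under 0.05 (limma), vertical offsets only separate points, and the red line is the list median. For KO minus WT the medians of the 10 genes (−0.43) and of the endoplasmic reticulum chaperones (−0.58) lie left of 0.

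Some markers of other fibres and cells, above all the slow fibre markers, also differed between the labels. Among all genes tested the shares were 15.3% lower and 12.3% higher for KO against WT and 13.4% lower and 12.8% higher for AAV against KO. In a bulk sample, fewer cells or fibres of a type and less RNA per cell cannot be told apart. All 10 slow fibre markers, such as the slow troponin Tnni1, were lower in KO than in WT, and 9 of 10 were higher in AAV than in KO. Their summed normalized counts ran from 5764 to 11858 in WT, from 1569 to 2382 in KO and from 5907 to 30305 in AAV, and none of the 10 was at 0 in all libraries of a group. Within AAV, the order of the slow fibre sums was not that of Hspb7: AAV 4, with the highest Hspb7 of all 12 libraries, had the lowest slow fibre sum of its group (5907), and AAV 2 had the highest sum (30305) with an Hspb7 of 38432. Hspa1a and Hspa1b were, like the slow fibre sum, highest in AAV 2 and lowest in AAV 4. Slow fibre sums within KO were 1750, 2382, 1694 and 1569 in KO 1 to 4. Hspb7, Hspb1 and Cryab had this same order within KO, and Hspa8 did not. Within WT the sums were 5764, 10492, 7244 and 11858 in WT 1 to 4, and none of these genes had that order. KO 2, with the highest sum of its group, was still below all WT libraries. The part of slow fibres in the differences of Hspb7, Hspb1, Cryab and Hspa8 was not tested.

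**Figure D5:**
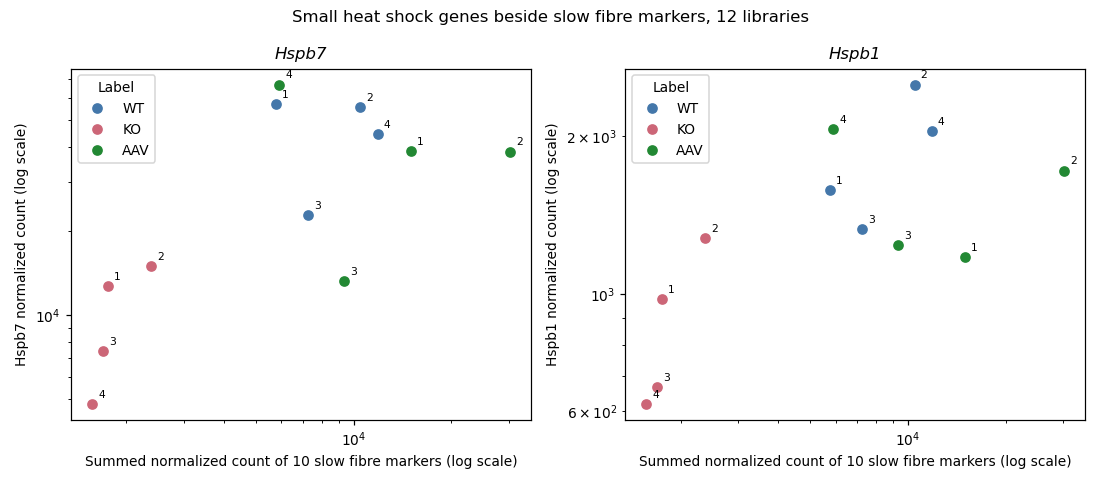
Normalized counts of Hspb7 (left) and Hspb1 (right) on the y axis against the summed normalized count of 10 slow fibre markers on the x axis, both log scales, with 1 point per library coloured by label and numbered by animal. The 4 KO libraries lie at the lowest marker sums, 1569 to 2382, and AAV 4 combines the highest Hspb7 value (66765) with the lowest AAV marker sum (5907).

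The other marker lists had these counts, several of them at or below the shares among all genes. Of the 12 fast fibre markers, 2 were lower (Myh1 and Myh2) and 1 higher (Myh4) in KO than in WT, and 2 were higher in AAV than in KO (Myh1 and Myh2). Of the 9 macrophage markers measured, 4 were lower and 1 higher in KO, with sums of 1534 to 4823 in WT, 881.5 to 1601 in KO and 936.5 to 4488 in AAV. Endothelial markers were higher in KO for 4 of 8, with sums of 2581 to 6908 in WT, 6509 to 8021 in KO and 5354 to 9655 in AAV. Of the 3 cardiac markers measured, 1 (Tnnt2) was lower in KO than in WT and higher in AAV than in KO, with sums of 363.6 to 1697 in WT, 98.3 to 133.8 in KO and 304.7 to 1563 in AAV. Fibroblast markers had 1 of 8 higher in KO and 1 lower in AAV than in KO (Dpt in both), adipocyte markers 0 of 8 in either direction, and erythrocyte markers 0 of 3 in KO and 2 of 3 higher in AAV than in KO. The part of these cells in the chaperone values was not tested.

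Immediate early genes, which respond within minutes to stress, handling or dissection, were lower in KO than in WT for 8 of 17 and higher for 0 (15.3% and 12.3% of all genes tested), with a median log2 fold change of −1.22. Jund, a Jun family factor, had the lowest adjusted p of the list (log2 fold change −2.83, SE 0.33, adjusted p = 0.000847, limma). Their summed counts were 20021 to 32696 in WT, 12793 to 18278 in KO and 13885 to 24876 in AAV. Between AAV and KO, 5 of the 16 tested were higher (12.8% of all genes), with Ier2 at 1.23 (adjusted p = 0.0133, limma), and 1 lower, Fosl2 (−0.63, adjusted p = 0.0138, limma). In the libraries with high Hspa1a and Hspa1b the immediate early sums were mixed: WT 3 had the lowest sum of its group (20021), KO 2 the second highest (14865) and AAV 2 the highest (24876). Whether the state of the muscle at harvest had a part in the chaperone values was not tested.

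The genes whose pattern was most like the mean of the 10 were sought over all 12 libraries, by the root mean square difference of z-scores among 11071 genes with a mean of at least 50. Outside the 10, the nearest were Rab15 (0.50), a small GTPase of endosomes, Serpinh1 (0.52), the collagen chaperone HSP47, Fhl1 (0.52), a LIM protein of the sarcomere, Lmcd1 (0.54), another LIM protein, and Nudt13 (0.54). Fhl1 had means of 29304 in WT, 10637 in KO and 25088 in AAV, with all 4 WT libraries between 28732 and 29884 and the KO libraries between 4616 and 16083. The 10 genes form the mean to which they are compared, so their own ranks are partly fixed and are given as a description. Bag3, Cryab, Hspb1, Hspa8 and Hspb7 ranked 1, 3, 6, 7 and 10, Hsp90aa1 153, Hspb8 1061, Hspa1b 1606, Hspa1a 2520 and Dnajb1 3190.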

How the data were processed

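The authors trimmed reads, kept those of at least 20 nt, mapped them to mouse GRCm38 (release 73), kept reads with a single location, counted them per gene and divided each library by its DESeq2 size factor. The deposited values are this normalized read signal, for 15344 genes in 2 tables whose KO values differ by 0. Processing notes of the submitters name Trim Galore 0.4.1, FastQC 0.11.2, STAR, HTSeq 0.6.1 and DESeq2 1.16.1. The tables also hold the authors' fold changes and p-values, which were not used, and 0 columns of samples were left out. All values (100%) were whole multiples of 1 read within 0.1 read, which recovered the reads.

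Groups came from the sample labels and were compared by limma 3.58.1 (R 4.3.3) with a trend on log2(normalized count + 1), a scale that understates changes of low genes, over genes at 10 or more in any of the 8 libraries, with Benjamini-Hochberg adjustment and a threshold of 0.05. Alternatives were edgeR 4.0.16 and DESeq2 1.42.0 on recovered reads, another pseudocount (0.1), filters, scaling, 1 fit of 12 libraries, a replicate block and libraries left out. Exact two-sided permutation tests of 4 against 4 cannot go below 0.0286. P-values measure the spread between animals, and no technical replicates were analysed here.

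The 10 genes and all lists were chosen with earlier results of these data known. Named were the 10 genes, Gaa, from each chaperone or immediate early list the lowest adjusted p in each direction and comparison (mean of at least 50), marker genes past the test, and the 5 genes nearest in pattern. Gene positions were taken from GENCODE M21, built on GRCm38 (15186 of 15344 identifiers found), promoters those of RefSeq. Copies were sought with BLAST 2.17.0 at 90% identity over 50% of the transcript. On simulated data with 200 genes changed by 2 on the log2 scale, limma recovered 94.5% of them for KO against WT (14570 genes), 97% for AAV against KO (14543 genes) and 91% for AAV against WT (14643 genes), with 11, 9 and 15 false calls. DESeq2 made 41, 38 and 49 false calls there, among 235, 234 and 240 genes called. Only 200 genes were changed, all by 2, so the recovery does not apply to smaller differences such as those of Cryab, Hspa8 and Hspb8. Python 3.11.15, pandas 2.3.3, numpy 2.4.6, scipy 1.17.1 and matplotlib 3.10.9 were used.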

Additional observations from a re-analysis of the deposited data

Results flagged for a closer look

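In groups of 4 libraries, a value was taken as standing apart by Dixon's criterion at the 95% level, which chance exceeds in about 1 in 20 groups. Hspa1a stood apart in WT 3 (654.2, the nearest WT library being at 198.0) and in KO 2 (879.1, nearest 217.4). Hspb7, Cryab and the other genes of the 10 apart from the Hspa1 pair gave no such value. Hspa1b stood apart in the same libraries, at 424.5 in WT 3 (nearest 135.0) and 450.7 in KO 2 (nearest 128.2), and since the 2 genes share most of their sequence these are not independent. Gaa stood apart in WT 2 (14640.2, nearest 460.3) and in AAV 4 (9854.3, nearest 946.8). The 33 groups tested gave 6 such values. Their causes were not tested.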

How the results depend on the processing

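The fall of Hspb7 and Hspb1 in KO against WT passed the test under every alternative run. Genes called for AAV against KO numbered 3910, and 2179 with the replicate block, under which Hspb7 was the 1 of the 10 genes called higher and Hspb1 did not pass (adjusted p = 0.0562, limma). The block gave 7 higher and 4 lower of the 100 chaperone network genes for AAV against KO, 4 higher and 21 lower for KO against WT, and 1 higher and 0 lower for AAV against WT. Replicate numbers did not pair the animals (same-number correlations -0.115 to 0.025 for KO against WT, -0.176 to 0.062 for AAV against KO and -0.355 to 0.554 for AAV against WT). For AAV against WT, 193 genes were called, and 935 with DESeq2, 127 without a filter, 320 with scaling to total reads and 901 with 12 libraries in one fit. There the log2 fold change of Hspa1b turned from -0.08 to 0.0093 (edgeR) and 0.067 (scaling to total reads), and that of Gaa from 0.47 to -0.34 (edgeR) and -0.39 (DESeq2). For KO against WT, edgeR did not call Hspa8 (adjusted p = 0.0515), the fit of 12 libraries did not call Cryab (0.0507, limma) and DESeq2 also called Hspb8 (0.0386). For AAV against KO, DESeq2 also called Cryab (0.0440) and scaling to total reads also called Bag3 (0.0443, limma). The causes were not tested.

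With 1 library left out, genes called ranged from 2347 to 7160 for KO against WT (7160 without WT 3), 1961 to 5071 for AAV against KO and 18 to 437 for AAV against WT (6 without WT 2 and AAV 4 together). Of the 10 genes, 2 to 5 were lower in KO and 0 to 5 higher in AAV than in KO. The sign changed for Hspa1a (-0.37 to 0.75, KO against WT, and -0.14 to 0.89, AAV against KO), Hspa1b (-0.86 to 0.15, -0.28 to 0.78 and, for AAV against WT, -0.58 to 0.36), and for AAV against WT in Cryab (-0.38 to 0.14), Hspb7 (-0.65 to 0.13) and Gaa (-0.51 to 1.79). Hspa1a and Hspa1b, the 2 lowest of the 10 per kilobase in WT, had a spread within groups of 74.3% to 100.8% and 75.8% to 97.7% of the mean (SD), and what depth adds to it was not tested.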
